A study of Mus musculus with 5 samples.

Results

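The 10 BCL2 family genes described here were taken by exact gene symbol from the 27678 genes of the deposited table, and each of them was found once. Of these, 6 encode proteins that keep a cell alive (Bcl2, Bcl2l1, Mcl1, Bcl2a1a, Bcl2a1b and Bcl2a1d) and 4 encode proteins that promote its death (Bax, Bak1, Bcl2l11 and Bbc3). Their transcripts were compared between Etv3-/- cells (3 libraries) and Etv3+/+ cells (2 libraries), which differ in the label for Etv3, a gene for a transcription factor of the ETS family. All libraries came from dendritic cells grown from mouse bone marrow over 6 days in GM-CSF (20 ng/ml) plus IL-4 (5 ng/ml), then sorted as CD11c-positive, CD11b-intermediate, MHC class II-high and CD115-negative cells to a purity above 95%. The sources used here give neither strain nor age nor the nature of the Etv3 allele, and do not say whether libraries came from separate animals. A p-value therefore measures only how far these libraries spread, which may be technical.

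BCL2 family proteins decide whether the outer mitochondrial membrane stays intact. BAX and BAK, once active, form pores in that membrane and release cytochrome c, which starts the caspase cascade. BCL-2, BCL-XL (from Bcl2l1), MCL-1 and the A1 proteins (from the Bcl2a1 genes) hold BAX, BAK and the BH3-only proteins in check, while BH3-only proteins such as BIM (from Bcl2l11) and PUMA (from Bbc3) tip the balance towards death. In myeloid cells GM-CSF is a survival signal, A1 is an abundant NF-kB-induced survival protein, and BIM is a main driver of dendritic cell turnover.

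The Bcl2a1 genes are recent copies on chromosome 9, which matters for how their reads can be told apart, so the start of their coding sequences is shown. These are the first 120 coding bases of each copy in GENCODE M21 (GRCm38), where capitals mark the 7 positions at which the copies do not all carry the same base.
Bcl2a1a (chr9:88957051-88957170, plus strand): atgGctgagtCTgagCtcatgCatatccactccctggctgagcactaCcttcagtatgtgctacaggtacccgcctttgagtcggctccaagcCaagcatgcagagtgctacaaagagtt
Bcl2a1b (chr9:89199360-89199479, plus strand): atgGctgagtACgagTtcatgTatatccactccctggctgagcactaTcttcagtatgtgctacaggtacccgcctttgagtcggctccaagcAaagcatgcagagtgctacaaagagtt
Bcl2a1d (chr9:88731600-88731719, minus strand): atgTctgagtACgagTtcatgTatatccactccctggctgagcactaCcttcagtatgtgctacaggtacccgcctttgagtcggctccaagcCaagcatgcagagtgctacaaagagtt
Over the whole coding sequence of 519 bases, Bcl2a1a and Bcl2a1b differed at 11 positions, Bcl2a1a and Bcl2a1d at 7, and Bcl2a1b and Bcl2a1d at 6. Of all stretches of 50 bases in a transcript, 67.7% of those in Bcl2a1a, 57.6% of those in Bcl2a1b and 79.5% of those in Bcl2a1d occurred unchanged in another of the copies. At 100 bases the shares were 43.5%, 31.1% and 54.7%. The assignment of reads that match several copies is not stated, so the split of reads among the copies is uncertain and their sum is given beside them. If such reads were left out of the counts, the sum would be too low as well. The levels, shares and balances below that use the Bcl2a1 copies carry that limit.

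The windows upstream of the Bcl2a1 genes are also near copies, and they show the kind of short ETS-type sequence that the family of ETV3 binds. Each window is the 250 bases before the RefSeq start of transcription (build GRCm38.p6), with GGAAGT, or its reverse complement, in capitals.
Bcl2a1a (chr9:88956670-88956919, plus strand): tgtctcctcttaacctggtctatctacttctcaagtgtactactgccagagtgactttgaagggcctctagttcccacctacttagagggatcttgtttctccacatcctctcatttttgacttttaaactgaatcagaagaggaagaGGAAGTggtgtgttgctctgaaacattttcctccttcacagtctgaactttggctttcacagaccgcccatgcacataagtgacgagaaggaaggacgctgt
Bcl2a1b (chr9:89199023-89199272, plus strand): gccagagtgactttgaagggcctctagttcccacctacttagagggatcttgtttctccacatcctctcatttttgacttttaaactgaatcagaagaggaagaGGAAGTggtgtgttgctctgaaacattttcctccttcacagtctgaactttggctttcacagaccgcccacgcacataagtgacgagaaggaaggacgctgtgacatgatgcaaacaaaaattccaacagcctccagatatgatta
Bcl2a1d (chr9:88731851-88732100, minus strand): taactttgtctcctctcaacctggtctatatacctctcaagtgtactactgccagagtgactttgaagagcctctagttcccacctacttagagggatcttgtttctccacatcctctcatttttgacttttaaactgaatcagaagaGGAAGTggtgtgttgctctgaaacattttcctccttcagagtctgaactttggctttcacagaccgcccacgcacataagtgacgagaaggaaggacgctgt
The window of Bcl2, the member with the largest difference between genotypes, is shown for comparison, as is the window of Bcl2l1 that holds a match, which is 1 of 3 that RefSeq gives for that gene.
Bcl2 (chr1:106714291-106714540, minus strand): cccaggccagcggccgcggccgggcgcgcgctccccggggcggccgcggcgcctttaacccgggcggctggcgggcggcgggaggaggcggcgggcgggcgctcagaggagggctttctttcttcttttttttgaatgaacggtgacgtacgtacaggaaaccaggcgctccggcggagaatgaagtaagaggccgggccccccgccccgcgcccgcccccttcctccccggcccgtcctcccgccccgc
Bcl2l1 (chr2:152830718-152830967, minus strand): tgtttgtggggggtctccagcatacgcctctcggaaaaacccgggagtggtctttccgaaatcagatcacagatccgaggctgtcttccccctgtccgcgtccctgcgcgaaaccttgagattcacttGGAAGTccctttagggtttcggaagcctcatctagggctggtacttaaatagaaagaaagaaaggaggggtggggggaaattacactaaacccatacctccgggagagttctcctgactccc
GGAAGT was present on either strand in 5 of the 15 member windows, against 19.7% of 32851 windows over all genes. These belong to the 3 Bcl2a1 copies, Bcl2l1 and Bak1, and the matches of the Bcl2a1 copies are not independent of each other. CCGGAA, the core of another ETS-type sequence, was present in 2 of the 15 member windows, of Mcl1 and Bcl2l11, against 12.0% of all windows. All 10 members had at least 1 window, 15 in all. The motifs overlap in the letters GGAA, and a match describes the letters of a window and not a bound site.

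The libraries held 42983550 to 68253936 reads, recovered from the normalized values. Etv3 itself had 18691, 20416 and 22856 normalized counts in Etv3-/- libraries, against 23050 and 25447 in Etv3+/+ libraries (log2 fold change -0.23, limma adjusted p = 0.567). A gene total does not check a knockout whose deleted part is not known, so genotypes are given as labelled. Dendritic cell identity was visible in both genotypes: H2-Ab1, an MHC class II chain, averaged 719932 and 247121 normalized counts in Etv3-/- and Etv3+/+, and Zbtb46, a dendritic cell transcription factor gene, 11463 and 9945. Csf1r, which encodes the CD115 used for exclusion, was not at 0, with 2403 to 3493 normalized counts in Etv3-/- and 1018 to 1348 in Etv3+/+. Deviations of a library from the mean of all followed GC content across genes in opposite directions in Etv3-/- replicate 3 (Spearman 0.41) and Etv3+/+ replicate 2 (-0.42). The Bcl2, Bcl2l1, Mcl1, Bax, Bbc3 and balance results are therefore also given with a correction for GC content and transcript length. Mitochondrial transcripts took 1.10% to 3.17% of normalized counts in Etv3-/- libraries and 1.98% and 6.64% in Etv3+/+ libraries.

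None of the 10 members passed the test between genotypes, and 5 of them, on both sides of the balance, were lower in every Etv3-/- library than in either Etv3+/+ library. These were Bcl2, Bcl2l1 and Mcl1 among the survival genes and Bbc3 and Bak1 among the death genes. The other members, the Bcl2a1 copies, Bax and Bcl2l11, had overlapping values. The test was limma on log2(normalized count + 1) over 13813 genes, of which 1.19% passed an adjusted p of 0.05 (0.876% higher and 0.319% lower). Among the members 0 passed with limma or with edgeR on the recovered reads, 3 had an unadjusted p under 0.05 in limma (Bcl2, Bcl2l1 and Bbc3, all lower, where 17.9% of all genes had such a p and 9.93% were lower with it), and 2 passed with DESeq2 (Bcl2 and Bcl2l1, both lower, where 4.1% of genes were called lower). The 5 members without overlap compare with 36.0% of all tested genes whose groups did not overlap and 19.3% that were lower in Etv3-/- without overlap. The median log2 fold change was -0.47 over the members and -0.06 over all tested genes. Every fold change of a member was below 0 (53.7% of all genes were) in this fit, while Bcl2l11 was above 0 with TMM scaling (0.030) and with quantile scaling (0.066), and Bcl2a1b with the GC and length correction (0.054).

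**Figure D1:**
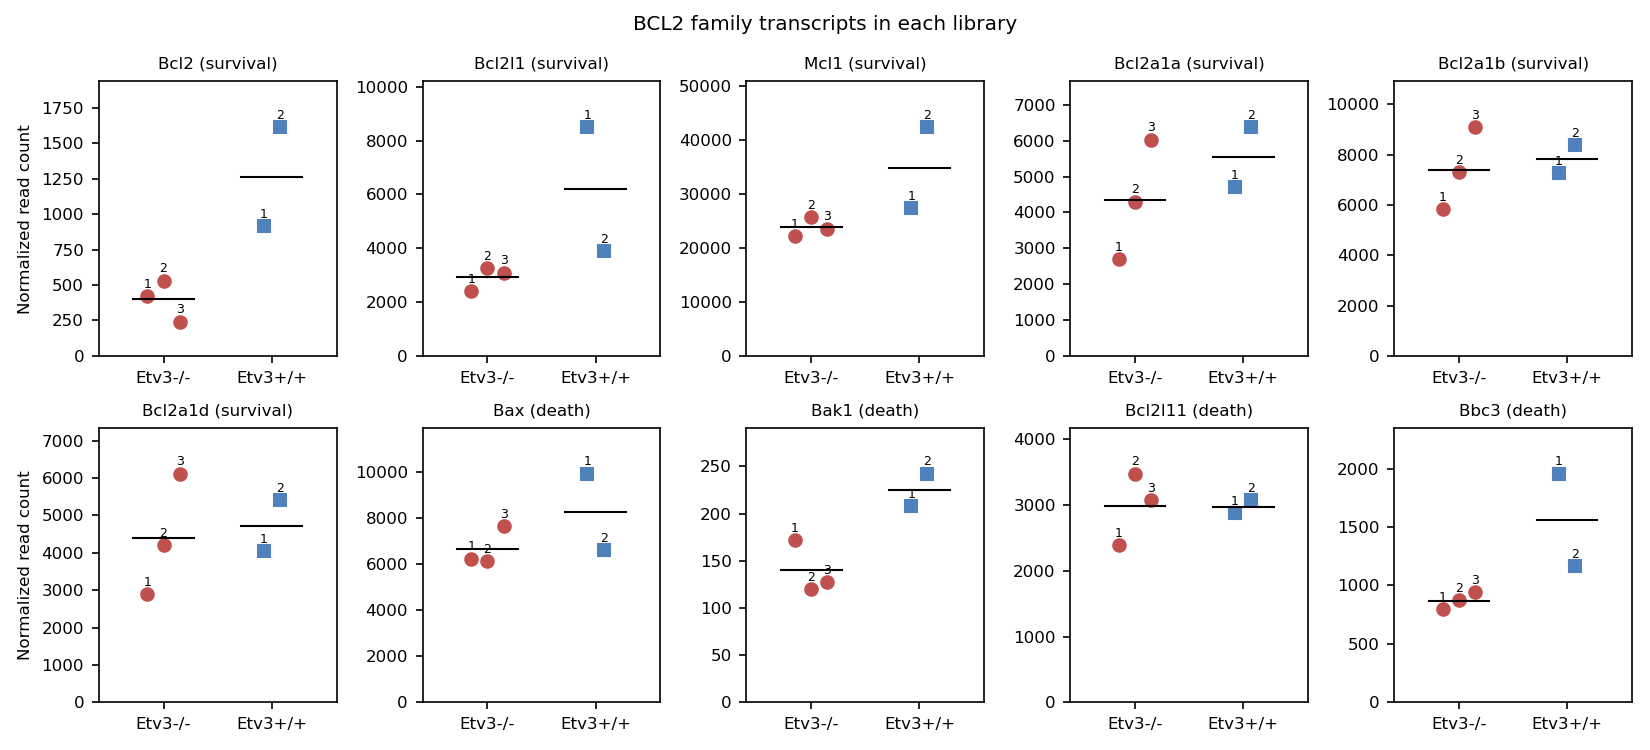
Normalized read counts of the 10 members in each library (circles, Etv3-/- replicates 1 to 3; squares, Etv3+/+ replicates 1 and 2; lines, group means; linear axes from 0). For Bcl2, Bcl2l1, Mcl1, Bak1 and Bbc3 all 3 Etv3-/- points lie below both Etv3+/+ points, and for the other members the genotypes overlap.

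Bcl2, the founding survival gene of the family (chromosome 1, 106538178 to 106714274, GRCm38, minus strand), had the largest difference. It had 424, 531 and 241 normalized counts in Etv3-/- libraries, against 913 and 1613 in Etv3+/+ libraries. The highest Etv3-/- value was thus below the lowest Etv3+/+ value. The fitted log2 fold change of Bcl2 was -1.68 (95% interval -2.73 to -0.62), or 0.313-fold on the fitted scale, with a limma adjusted p of 0.123 and a DESeq2 adjusted p of 0.0150. A two-sided exact permutation test over the 10 possible assignments of genotype to the libraries gave p = 0.1, the smallest it can give. The extreme values lie in the libraries with the opposite GC trends, Etv3-/- replicate 3 and Etv3+/+ replicate 2, and the Bcl2 transcript has a GC content below that of most tested genes (46.3%, at the 31.6th percentile). With the correction for GC content and length the log2 fold change was -1.40 (limma adjusted p = 0.0995), and without both of those libraries it was -0.94 (limma adjusted p = 0.398). Bcl2 is also expressed in lymphocytes. The summed T and NK cell markers were 4496 to 6852 normalized counts in Etv3-/- and 6916 and 6853 in Etv3+/+. Of 11 tested markers 4 were lower without overlap, where 19.3% of all tested genes were. These were Cd3d, Cd3g, Trbc2 and Nkg7 (log2 fold changes -0.69, -1.31, -1.22 and -1.14). Over the 11 markers 7 fold changes were below 0 and 4 above, among the latter Cd8a (mean 1686 in Etv3-/- and 1259 in Etv3+/+). Ncr1 was at 0 in every library, and Cd3e was at 210 to 287 in Etv3-/- and 340 and 187 in Etv3+/+. Summed B cell markers were 16598 to 25005 in Etv3-/- and 10467 and 9621 in Etv3+/+. Most of that sum is Blnk, which myeloid cells also express (mean 15721 in Etv3-/- and 7805 in Etv3+/+). Of 9 tested B cell markers 7 had a log2 fold change above 0 and 2 below, among the latter Ms4a1 (mean 142 in Etv3-/- and 271 in Etv3+/+). The part of these cells in the Bcl2 difference was not tested. In bulk libraries such as these, fewer cells of a type and less RNA per cell cannot be told apart.

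Bcl2l1, which encodes BCL-XL (chromosome 2, 152780668 to 152831728, minus strand), was the next of the survival genes by size of difference. Its normalized counts were 2415, 3262 and 3088 in Etv3-/- and 8498 and 3895 in Etv3+/+. The Etv3-/- libraries lay close together, while the Etv3+/+ libraries differed 2.18-fold from each other. The fitted log2 difference was -0.99, with a 95% interval of -1.78 to -0.20 (limma adjusted p = 0.199; DESeq2 adjusted p = 0.0468). Etv3+/+ replicate 1 carried most of it: without that library the log2 fold change was -0.43, and without Etv3+/+ replicate 2 it was -1.55 (limma adjusted p = 0.494 and 0.0857). With the correction for GC content and length it was -1.16 (limma adjusted p = 0.0789). Without Etv3-/- replicate 3 and Etv3+/+ replicate 2 together it was -1.60.

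Mcl1, a short-lived survival protein's gene (chromosome 3, 95658788 to 95663176, plus strand), was the most abundant member by counts. It had 22178, 25673 and 23557 normalized counts in Etv3-/-, against 27430 and 42379 in Etv3+/+. The genotypes did not overlap, but the gap between the nearest values was small beside the distance between the Etv3+/+ libraries. On the log2 scale Mcl1 differed by -0.52 (95% interval -1.08 to 0.04, limma adjusted p = 0.313), or -0.83 without Etv3+/+ replicate 1 and -0.21 without Etv3+/+ replicate 2. The correction for GC content and length gave -0.51 (limma adjusted p = 0.217). Leaving out Etv3-/- replicate 3 and Etv3+/+ replicate 2 together gave -0.20.

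The A1 genes had overlapping values in the genotypes and a wide spread among the Etv3-/- libraries. Bcl2a1b (chromosome 9, 89199209 to 89207827, plus strand) had 5819, 7300 and 9086 normalized counts in Etv3-/- and 7258 and 8385 in Etv3+/+. Bcl2a1a (88956900 to 88962419, plus strand) had 2692, 4297 and 6028 in Etv3-/- and 4699 and 6374 in Etv3+/+. In all 3 copies Etv3-/- replicate 1 was the lowest library. Bcl2a1d (88723285 to 88731914, minus strand) had 2886, 4198 and 6113 in Etv3-/- and 4036 and 5412 in Etv3+/+. The log2 fold changes were -0.10 (95% interval -0.65 to 0.46) for Bcl2a1b, -0.41 (-1.21 to 0.39) for Bcl2a1a and -0.15 (-0.92 to 0.61) for Bcl2a1d, with limma adjusted p values of 0.866, 0.563 and 0.848. The intervals leave room for a difference in either direction. The Bcl2a1a value rests on single libraries, with -0.10 without Etv3-/- replicate 1, -0.69 without Etv3-/- replicate 3 or with the replicate block, -0.63 without Etv3+/+ replicate 1 and -0.19 without Etv3+/+ replicate 2. The 3 copies summed to 11397, 15796 and 21226 normalized counts in Etv3-/- and 15993 and 20171 in Etv3+/+.

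A1 is abundant in neutrophils, and neutrophil markers were present in every library. The 12 markers summed to 15628, 28518 and 77048 normalized counts in Etv3-/- replicates 1, 2 and 3, and to 53682 and 56592 in Etv3+/+ replicates 1 and 2. The Etv3-/- libraries had the same order for this sum, of which S100a8 and S100a9 hold the largest shares, as for the A1 genes, with replicate 1 lowest and replicate 3 highest in both. Not every marker had that order: Elane and Mpo, genes of primary granule enzymes, were highest in Etv3-/- replicate 1, and Ngp and Mmp8 were lowest in Etv3-/- replicate 2. S100a8, a calprotectin chain, had 3307, 12690 and 24708 normalized counts in Etv3-/- and 16074 and 32290 in Etv3+/+. Elane had 669, 70.6 and 95.6 normalized counts in Etv3-/- and 197 and 0 in Etv3+/+, and Mpo had 3337, 1235 and 1214 in Etv3-/- and 1499 and 542 in Etv3+/+. No marker other than Elane was at 0 in any library. Of the 12 markers 0 passed limma, edgeR or DESeq2 (0 at an unadjusted p under 0.05 in limma). The part of neutrophil RNA in the A1 values was not tested.

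**Figure D2:**
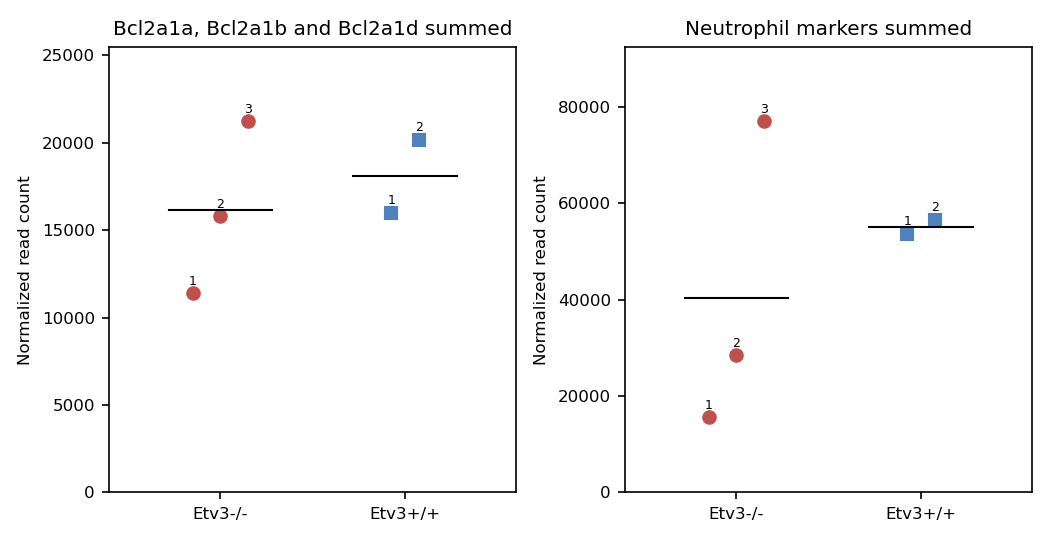
Summed normalized counts of the 3 Bcl2a1 copies (left) and of 12 neutrophil markers (right) in each library, with circles for Etv3-/- replicates 1 to 3, squares for Etv3+/+ replicates 1 and 2 and lines for group means. In both panels Etv3-/- replicate 1 is lowest (11397 and 15628) and Etv3-/- replicate 3 highest (21226 and 77048).

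Of the pore-forming members, Bax (chromosome 7, 45461697 to 45466898, minus strand) was abundant and Bak1 was not. Bax had 6250, 6133 and 7650 normalized counts in Etv3-/- and 9931 and 6605 in Etv3+/+. The Etv3-/- libraries lay on both sides of Etv3+/+ replicate 2. With the correction for GC content and length the log2 values of Bax were 12.64, 12.66 and 12.74 in Etv3-/- and 13.14 and 12.88 in Etv3+/+, which do not overlap, and 6 members were then lower without overlap, where 18.0% of all genes were. Bax differed by -0.29 on the log2 scale (95% interval -0.85 to 0.27; limma adjusted p = 0.565), and it was 0.0085 without Etv3+/+ replicate 1. Bak1 (chromosome 17, 27019810 to 27029009, minus strand) had 172, 120 and 127 normalized counts in Etv3-/- and 208 and 242 in Etv3+/+. These are few counts, from 97 to 283 reads per library. The log2 fold change of Bak1 was -0.70 with a wide 95% interval, -1.89 to 0.49 (limma adjusted p = 0.508), and an exact permutation test gave p = 0.2.

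Of the BH3-only members, Bbc3 was lower in every Etv3-/- library and Bcl2l11 was not. Bbc3, the gene of the p53-induced protein PUMA (chromosome 7, 16308393 to 16318205, plus strand), had 796, 876 and 940 normalized counts in Etv3-/-, against 1955 and 1166 in Etv3+/+. The Etv3-/- libraries were close to each other and below both Etv3+/+ libraries. On the log2 scale Bbc3 differed by -0.80 (95% interval -1.53 to -0.07, limma adjusted p = 0.244), with -0.43 without Etv3+/+ replicate 1 and -1.17 without Etv3+/+ replicate 2. The correction for GC content and length gave -0.78 (limma adjusted p = 0.157). Leaving out Etv3-/- replicate 3 and Etv3+/+ replicate 2 together gave -1.23. Bcl2l11, the gene of BIM (chromosome 2, 128126038 to 128162547, plus strand), had 2391, 3472 and 3073 normalized counts in Etv3-/- and 2871 and 3069 in Etv3+/+. Both Etv3+/+ values lay within the range of the Etv3-/- values. Its log2 fold change was -0.01, with a 95% interval of -0.56 to 0.54, which spans 0.676-fold to 1.45-fold (limma adjusted p = 0.986).

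**Figure D3:**
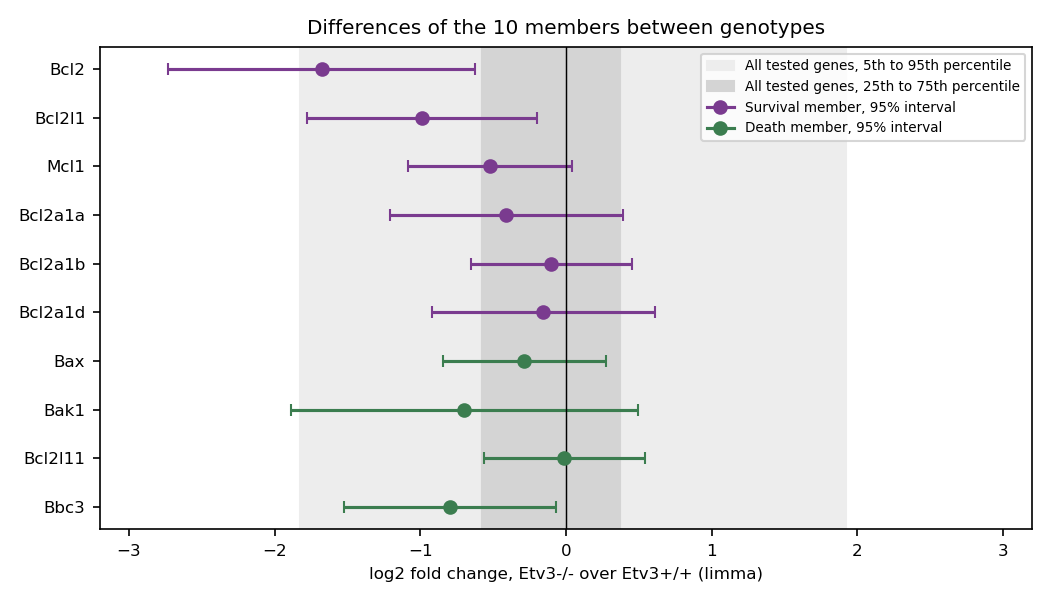
Log2 fold change of each member, Etv3-/- over Etv3+/+, with its 95% interval from limma (purple for survival, green for death). Grey bands lie between the percentiles, named in the key, of the log2 fold changes of all 13813 tested genes. The intervals of Bcl2, Bcl2l1 and Bbc3 lie below 0 before adjustment, and that of Bcl2l11 is centred near 0 (-0.01).

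To compare levels between genes, normalized counts were divided by the length of the longest GENCODE transcript in kb. In Etv3-/- the order of mean levels per kb was Bcl2a1b (9059 ± 2002), Mcl1 (6964 ± 515), Bax (6071 ± 767), Bcl2a1a (5298 ± 2037), Bcl2a1d (5097 ± 1881), Bcl2l1 (1138 ± 174), Bcl2l11 (591 ± 109), Bbc3 (480 ± 39.8), Bak1 (58.6 ± 11.8) and Bcl2 (55.4 ± 20.4; SD, n = 3). The members from Bcl2a1b to Bcl2a1d were separated from their neighbours by about their spread or less, as were Bak1 and Bcl2, while Bcl2l1 stood below that upper set and above Bcl2l11 by more than its spread. In Etv3+/+ Mcl1 led at 10212 ± 3092 per kb, followed by Bcl2a1b at 9574 ± 975 and Bax at 7516 ± 2138 (SD, n = 2). Bcl2l1 was at 2413 ± 1267, Bbc3 at 860 ± 308, Bcl2l11 at 590 ± 27.8, Bcl2 at 176 ± 68.8 and Bak1 at 94.3 ± 10.2 per kb in Etv3+/+. Bbc3 thus stood below Bcl2l11 in Etv3-/- and above it in Etv3+/+, by less than the spread of Bbc3 in the Etv3+/+ libraries.

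The survival pool was made mostly of A1 and Mcl1 transcripts in both genotypes. The 3 Bcl2a1 copies held 64.7%, 68.3% and 75.9% of the summed survival level per kb in Etv3-/- libraries, and 62.7% and 63.2% in Etv3+/+ libraries. These shares did not overlap between genotypes, with the lowest Etv3-/- share near the Etv3+/+ values. Mcl1 held 30.5%, 26.9% and 20.5% in Etv3-/-, and 26.1% and 32.2% in Etv3+/+. Bcl2l1 held 4.43%, 4.55% and 3.57% in Etv3-/-, and 10.8% and 3.94% in Etv3+/+, where the higher value belongs to replicate 1. Bcl2 made up 0.0995% to 0.277% of the pool in Etv3-/- and 0.413% and 0.583% in Etv3+/+, so its difference had little weight in the sum. On the death side Bax held 82.0% to 85.5% in Etv3-/- and 83.9% and 81.6% in Etv3+/+. Bbc3 held 6.58%, 7.10% and 6.37% of the death level in Etv3-/-, below its 10.0% and 8.74% in Etv3+/+.

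The balance of survival to death transcripts overlapped between the genotypes. The summed survival level was 3.19, 4.10 and 4.14 times the summed death level per kb in Etv3-/- replicates 1, 2 and 3, and 2.86 and 5.23 times in Etv3+/+ replicates 1 and 2. All 3 Etv3-/- values lay between those of the Etv3+/+ libraries. On the log2 scale the mean balance was 1.92 ± 0.21 in Etv3-/- (SD, n = 3) and 1.95 ± 0.62 in Etv3+/+ (SD, n = 2), a difference of -0.03. No p is given for a score over chosen members. Without Etv3+/+ replicate 1 the difference was -0.47, and without Etv3+/+ replicate 2 it was 0.40. The difference was also above 0 without Etv3-/- replicate 1 (0.093), without Mcl1 (0.032) and with merged exon lengths (0.0033), so its direction is not settled by these libraries. Without the 3 Bcl2a1 copies, whose read split and sum are uncertain, the difference was -0.33. The log2 balance was then 0.17, 0.38 and -0.0014 in Etv3-/- and 0.091 and 0.94 in Etv3+/+. Without division by length the difference was -0.20. The genotypes overlapped under both of these settings. The Etv3+/+ libraries differ in their GC trend, and Bax (63.5%) and Bbc3 (65.2%) are among the most GC-rich transcripts tested, at the 99.4th and 99.7th percentile, while the Bcl2a1 copies lie at the 20.8th to 23.5th. With every member weighted equally as a mean log2 value, the balance was 1.41, 1.79 and 1.71 in Etv3-/- and 1.59 and 2.07 in Etv3+/+. After the correction for GC content and length, an alternative chosen after seeing the data, it was 1.39, 1.75 and 1.89 in Etv3-/- and 1.77 and 1.77 in Etv3+/+, a difference of -0.09.

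**Figure D4:**
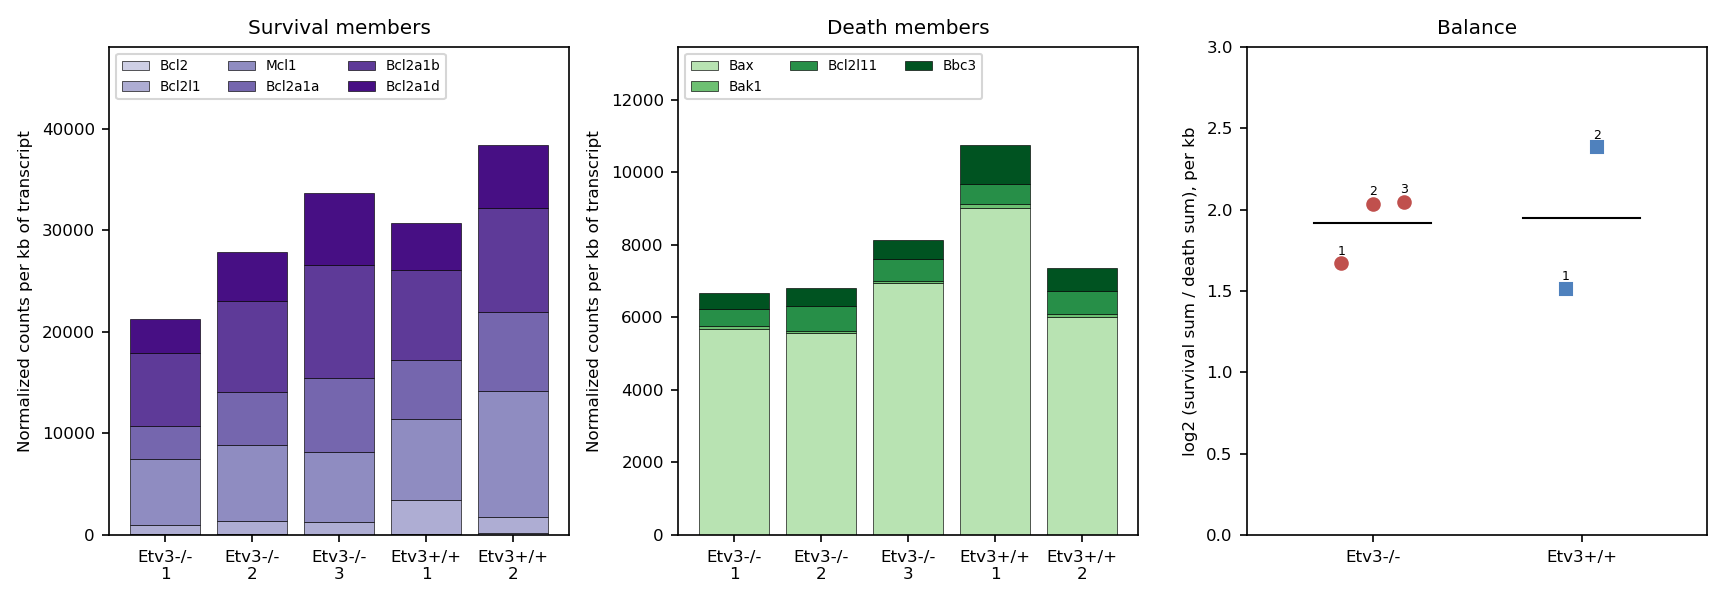
Summed levels of survival members (left) and death members (middle) in normalized counts per kb of transcript, stacked by gene for each library, and the log2 ratio of the sums (right; circles, Etv3-/-; squares, Etv3+/+; lines, group means). The Etv3-/- ratios (1.67 to 2.05) lie between those of Etv3+/+ replicates 1 (1.51) and 2 (2.39).

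Ratios of single survival genes to Bcl2l11 did not overlap between genotypes for Mcl1, Bcl2l1 and Bcl2, while the ratio of the sums did. The ratio of Mcl1 to Bcl2l11 per kb was 13.7, 10.9 and 11.3 in Etv3-/-, against 14.1 and 20.3 in Etv3+/+. The ratio of Bcl2l1 to Bcl2l11 was 1.98, 1.84 and 1.97 in Etv3-/-, against 5.81 and 2.49 in Etv3+/+. That of Bcl2 to Bcl2l11 was 0.124, 0.107 and 0.0550 in Etv3-/-, against 0.223 and 0.368 in Etv3+/+. In each of these pairs all Etv3-/- libraries were below both Etv3+/+ libraries. The 3 survival genes did not overlap by themselves, and Bcl2l11 differed little (log2 fold change -0.01). These ratios share 1 denominator and so largely repeat the separation of the single genes, where 19.3% of all tested genes were lower without overlap. They are not a further result on the balance. The summed Bcl2a1 copies to Bcl2l11 gave 29.0, 27.6 and 41.9 in Etv3-/- and 33.9 and 39.9 in Etv3+/+, which overlap. Against Bbc3, which was itself lower in Etv3-/-, all 4 ratios overlapped, for instance 2.14, 2.63 and 2.32 in Etv3-/- and 3.07 and 2.36 in Etv3+/+ for Bcl2l1.

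The pattern of Bcl2 over the 5 libraries was most like that of Zfp748, Cldn12 and AW549877, with root mean square differences of centred log2 values of 0.04, 0.05 and 0.09. That of Bbc3, the death member with the largest difference, was most like those of Srxn1, Aasdh and Pabpn1, with 0.06, 0.08 and 0.08. All 6 were lower in Etv3-/- without overlap, and none passed limma (adjusted p of 0.102 to 0.376). Likeness is given as a description only.

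The other genes of the pathway also stayed below the threshold. For the counts below, 17.9% of all tested genes had an unadjusted p under 0.05 in limma, and 9.93% were lower with it. Of 15 further BCL2 family genes 11 were tested, and 0 passed (3 at an unadjusted p under 0.05, edgeR 0, DESeq2 1 higher). Bcl2l10 had 0 reads in every library, and Bok, Hrk and Bcl2l15 were too low to test. Pmaip1, the gene of the BH3-only protein NOXA that neutralises MCL-1, was the most abundant and had 13407, 20451 and 10895 normalized counts in Etv3-/-, against 22526 and 34438 in Etv3+/+ (log2 fold change -0.95, limma adjusted p = 0.187). Like Mcl1, its partner, it was lower in every Etv3-/- library. Bnip3l, which acts in mitophagy, was at 7362 ± 1789 in Etv3-/- (SD, n = 3) and 9739 ± 2224 in Etv3+/+ (SD, n = 2), with overlap. Bmf, a BH3-only gene picked out after its values were seen, was higher in every Etv3-/- library, with 6809, 6612 and 5957 normalized counts against 4211 and 4203 in Etv3+/+ (log2 fold change 0.62, limma adjusted p = 0.166), and was the gene called by DESeq2.

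Downstream of the mitochondrial pore, 0 of 16 apoptosome and executioner genes passed limma (2 at an unadjusted p under 0.05, both lower; edgeR 0; DESeq2 1 lower), with a median log2 fold change of -0.06. Vdac2, a mitochondrial channel gene, was at 17172 ± 1799 normalized counts in Etv3-/- and 17147 ± 997 in Etv3+/+, and Vdac1, a related channel gene, at 11321 ± 2315 and 9253 ± 1198 (SD, n = 3 and n = 2). Among 8 inhibitor of apoptosis genes 0 passed limma, edgeR or DESeq2, and 2 were lower at an unadjusted p under 0.05. Birc2, which encodes the ubiquitin ligase cIAP1, had 14910, 26075 and 16592 in Etv3-/- and 30049 and 43049 in Etv3+/+ (log2 fold change -0.95, limma adjusted p = 0.168), and Birc3, which encodes cIAP2, had 9141, 9772 and 13963 in Etv3-/- and 8166 and 9116 in Etv3+/+ (log2 fold change 0.32, limma adjusted p = 0.516).

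Upstream, 0 of 20 tested regulators of BCL2 proteins passed limma (3 higher and 4 lower at an unadjusted p under 0.05; edgeR 0; DESeq2 1 lower, Rel). Csf2rb, the common beta chain of the GM-CSF receptor, had 64659, 46936 and 56100 normalized counts in Etv3-/-, against 90887 and 83751 in Etv3+/+ (log2 fold change -0.65, limma adjusted p = 0.214). The genotypes did not overlap for this chain. Relb, an NF-kB subunit gene, was at 31380 ± 11026 in Etv3-/- and 32472 ± 10234 in Etv3+/+ (SD, n = 3 and n = 2). Trp53, the p53 gene, named after its values were seen, was higher in every Etv3-/- library. It had 3993, 3259 and 4683 normalized counts in Etv3-/-, against 2832 and 1769 in Etv3+/+ (log2 fold change 0.81, limma adjusted p = 0.199). Of 16 p53 target genes 0 passed limma (3 lower at an unadjusted p under 0.05; edgeR 0; DESeq2 1 lower, Trp53inp1), and 7 were lower without overlap. Over all tested genes 9.93% were lower at an unadjusted p under 0.05 in limma, and 19.3% were lower without overlap. The median log2 fold change of these p53 targets was -0.28, with 11 of 16 below 0, where 53.7% of all tested genes were. The 2 with the highest mean over the 5 libraries, the cell cycle inhibitor gene Cdkn1a and the stress sensor gene Sesn2, lay on the other side of 0. Cdkn1a averaged 27123 ± 3703 normalized counts in Etv3-/- and 23419 ± 3204 in Etv3+/+, and Sesn2 16475 ± 1395 in Etv3-/- and 15267 ± 4793 in Etv3+/+, with overlapping values. Ccng1, a cyclin G gene named after its values were seen, averaged more than Sesn2 in Etv3+/+ and was lower in Etv3-/- without overlap, at 10695 ± 2919 in Etv3-/- and 20498 ± 7348 in Etv3+/+ (log2 fold change -0.93, limma adjusted p = 0.199).

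Of the marker lists, those of macrophages and of dendritic cells held genes that passed the test. The macrophage and monocyte list had 3 of 12 markers called higher with limma, C1qa, C1qb and C1qc of complement, and its summed level was 57010 to 75038 normalized counts in Etv3-/- and 34528 and 33780 in Etv3+/+. On the dendritic cell list 1 of 10 was called higher, Ciita, the master regulator of MHC class II genes (13949 ± 1049 in Etv3-/- and 5636 ± 1350 in Etv3+/+, limma adjusted p = 0.0380). These 4 calls did not hold with any 1 Etv3-/- library left out, when 0 genes on the lists outside the members passed. Calls were then few over the whole table too, with 0 to 7 genes called higher. With trend=FALSE in eBayes, 0 genes on these lists passed as well. At an unadjusted p under 0.05 in limma, 9 macrophage and 4 dendritic cell markers were higher and 0 lower. Of all 13813 tested genes 0.876% were called higher with limma. At an unadjusted p under 0.05, 1108 of them were higher and 9.93% were lower. The same 4 genes were called by edgeR, while DESeq2 called 8 macrophage and 4 dendritic cell markers higher. Among 8 mast cell and basophil markers, 11 tested T and NK cell markers and 9 tested B cell markers, 0 passed limma or edgeR, with 0, 3 (lower) and 6 (higher) at an unadjusted p under 0.05. DESeq2 called 4 B cell markers higher and none of the other 2 lists. Those with the highest mean over the 5 libraries were Prss34 (8325 ± 2363 in Etv3-/- and 7562 ± 4678 in Etv3+/+), Cd8a (1686 ± 509 and 1259 ± 85.6) and Blnk (15721 ± 5077 and 7805 ± 123; SD, n = 3 and n = 2), the last a signalling adaptor that myeloid cells also express. Kit, Nkg7 and Ighm came next by that mean, at 2535 ± 1172, 818 ± 399 and 1771 ± 430 in Etv3-/- and 2572 ± 671, 1625 ± 185 and 1025 ± 309 in Etv3+/+. The pooled order hides that Nkg7 was below Cd8a in Etv3-/- and above it in Etv3+/+. Of 12 tested mitochondrial transcripts 0 passed limma, edgeR or DESeq2 (0 at an unadjusted p under 0.05), all overlapped, and mt-Co1 and mt-Cytb, the most abundant, were highest in Etv3+/+ replicate 2. The part of any of these cells in the values of the BCL2 family was not tested.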

How the data were processed

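The authors deposited a table of normalized counts, a signal in which every read of a library has the same value. Trimmomatic 0.36, STAR 2.7.3a, featureCounts, Subread 1.6.3, DESeq2 1.26.0 and build mm10 are named in the submitters' processing notes. Roles, annotation, filters and strand setting are not stated. Without strand, reads of Bcl2, Bcl2a1d and Bak1 cannot be told from those of overlapping genes on the other strand. Bax, Bcl2a1b and Bcl2 also overlap annotated genes on their own strand (Gm45808, Gm29094, and Gm37053 with Mir3473f), which a strand setting would not resolve. Per the labels' protocols, a low-input SMART-Seq HT chemistry was used, and no molecular identifiers are mentioned, so PCR copies count as reads. Values were whole multiples of 1 step per library (100% within 0.1 of a whole number), which gave the reads used for edgeR 4.0.16 and DESeq2 1.42.0.

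Genes with at least 10 normalized counts in at least 2 libraries were tested with limma 3.58.1 (eBayes with trend, R 4.3.3) on log2(normalized count + 1), two-sided, with Benjamini-Hochberg adjustment over all genes and a threshold of 0.05. The procedure was run on simulated counts with the same spread for all genes and no GC trend. That run does not show how well differences of the members' size are found in these libraries. Positions, lengths and GC content came from GENCODE M21, on the mm10 assembly, and GC content was known for 13609 of 13813 tested genes. Promoters came from RefSeq. The GC and length correction was a local regression with span 0.3. All members, up to 4 called genes per other list (otherwise the 2 with the highest mean over the 5 libraries) and the 3 genes likest to 1 member of each class were named. Some further genes, such as Bmf, Trp53, Ccng1 and the T cell markers given beside Bcl2, were named after their values were seen. The members, lists and tests were chosen with earlier results of these data known. The result of 1 gene on the wider lists is not reported here.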

Additional observations from a re-analysis of the deposited data

How the results depend on the processing

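Members called lower stayed at 0 with limma under every alternative run and were 2 with DESeq2, and members called higher stayed at 0. With limma, 121 genes were higher and 44 lower over the whole table. The counts of higher and lower genes were 183 and 92 with a filter of 50 in 3 libraries, 644 and 544 with DESeq2, 234 and 109 with the GC and length correction, and 6 and 1 without Etv3-/- replicate 3 and Etv3+/+ replicate 2. There were 70 lower with a pseudocount of 5, and 44 higher and 49 lower with trend=FALSE. Leaving out 1 library gave 0 to 73 higher and 0 to 7 lower, with 0 of either without Etv3-/- replicate 1 and 0 lower without Etv3-/- replicate 2 (1885 and 2334 genes at an unadjusted p under 0.05). Leaving out an Etv3+/+ library leaves 1, assumed to vary like the others. The wider lists held 4 called genes, against 2 with no filter, 7 with the filter of 50, 0 with trend=FALSE, 20 with DESeq2, 8 with the GC and length correction, 0 without Etv3-/- replicate 3 and Etv3+/+ replicate 2 together and 0 to 2 with 1 library left out. The replicate block, a term for the replicate number, gave 151 higher and 118 lower genes and 9 on the wider lists, and 0 members. Etv3-/- replicate 3 has no Etv3+/+ library of the same number, so it adds nothing to the fold changes with the block. Those of the members equal the values without that library, for instance -1.35 for Bcl2. The deviations of libraries with the same number correlated at -0.034 and 0.039, so the numbers are not taken to pair them.

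The log2 fold change of Bcl2l11 was above 0 with TMM (0.030), quantile scaling (0.066), sample weights (0.0056), edgeR (0.064), DESeq2 (0.034), the GC and length correction (0.12, or 0.077 with the block) and without Etv3-/- replicate 3 and Etv3+/+ replicate 2 (0.0055). With 1 library left out it ranged from -0.13 to 0.14. That of Bcl2a1b was 0.054 with the GC and length correction and ranged from -0.26 to 0.062 with 1 library left out. With 1 library left out, Bcl2a1d ranged from -0.42 to 0.12, Bax from -0.58 to 0.0085 and the balance difference from -0.47 to 0.40. The cause of these changes was not tested. The direction of the other members and of Etv3 did not change. Quantile scaling moved the median of all genes by 0.08. Depth limits Bak1 most, at 97 reads in its lowest library.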
